A study of Mus musculus with 12 samples.

Results

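Bone marrow endothelial cells of mice that carried breast cancer cells in their long bones were compared with those of tumor-free mice, in 6 of the series' 12 arrays: 3 from tumor-bearing and 3 from tumor-free animals, chosen by their sample titles. All mice were female and of the NOD SCID strain, whose inherited immunodeficiency leaves them with almost no B or T lymphocytes but with myeloid cells, and no age is given in the sources used here. The tumor-bearing mice had received 200000 MDA-MB231 scp1833 cells by the intracardiac route, a bone-seeking subline of a human breast cancer line, and bioluminescence followed the growth in the long bones for about 2 weeks. The tumor-free mice are labelled as controls, with no injection named for them. Cells were freed from ground bone by collagenase, dispase and DNAse, passed over a density gradient and sorted as GFP-, TR119-, CD45-, SCA1+ and CD31+ in both groups. The design text speaks of 6 to 10 samples without saying whether an array pools several mice, and nothing says that the 3 arrays of a group came from separate animals beyond the words biological replicate, so the p-values reflect only how these arrays vary, which may be technical. The other 6 arrays hold osteoblasts of the same tumor-free and tumor-bearing design, and they entered the fit for the estimate of spread and the test of whether endothelial changes differed from theirs.

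The endothelium of the marrow forms thin-walled sinusoids, through which blood cells enter the circulation, and arterioles. It displays adhesion molecules that catch circulating leukocytes and tumor cells, and it supplies stem cells with factors such as Cxcl12 and Kitl. Cytokines of inflammation act on it through NF-kB, and interferons through factors that bind the interferon-stimulated response element of their target genes.

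Of 19937 genes measured, 12430 were bright enough to be tested, and array medians over all probe sets lay between 5.21 and 5.41 on the log2 scale. The sort was visible in the values. Pecam1, which encodes CD31, stood at 10.84, 10.68 and 10.76 (log2 expression) on the tumor-free arrays and at 10.82, 10.68 and 10.92 on the tumor-bearing ones. Cdh5, the endothelial cadherin, lay between 11.48 and 11.60 on all 6. Ptprc, which encodes the CD45 that the gate excludes, lay between 4.53 and 5.24, below the array medians except on tumor-free replicate 2. Ly6a, which encodes SCA1, is not analysed here.

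Tumor-free replicate 1 stood apart from its group. Over the genes tested it correlated at 0.955 and 0.958 with tumor-free replicates 2 and 3, but at 0.969, 0.959 and 0.964 with the 3 tumor-bearing arrays, while tumor-free replicates 2 and 3 correlated at 0.972 with each other and at 0.930 to 0.944 with the tumor-bearing arrays. For replicates 2 and 3, 37.7% and 39.7% of genes lay nearer to the tumor-bearing mean than to the mean of the other tumor-free arrays. Those others include replicate 1, for which the share was 54%. Immediate early genes, transcribed soon after a stimulus or after tissue is dissociated, had a mean of 9.09 on this array, 8.28 and 8.15 on the other tumor-free arrays and 9.16, 9.17 and 9.13 on the tumor-bearing ones. Heat shock genes had means of 10.31, 9.44 and 9.45 against 10.17, 10.08 and 10.06. The cause was not tested, and values without it are given for the medians of the gene lists and for genes whose call changed. This array was singled out after its values were seen. Leaving out the tumor-free array nearest to the tumor-bearing ones tends to widen the difference.

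**Figure D1:**
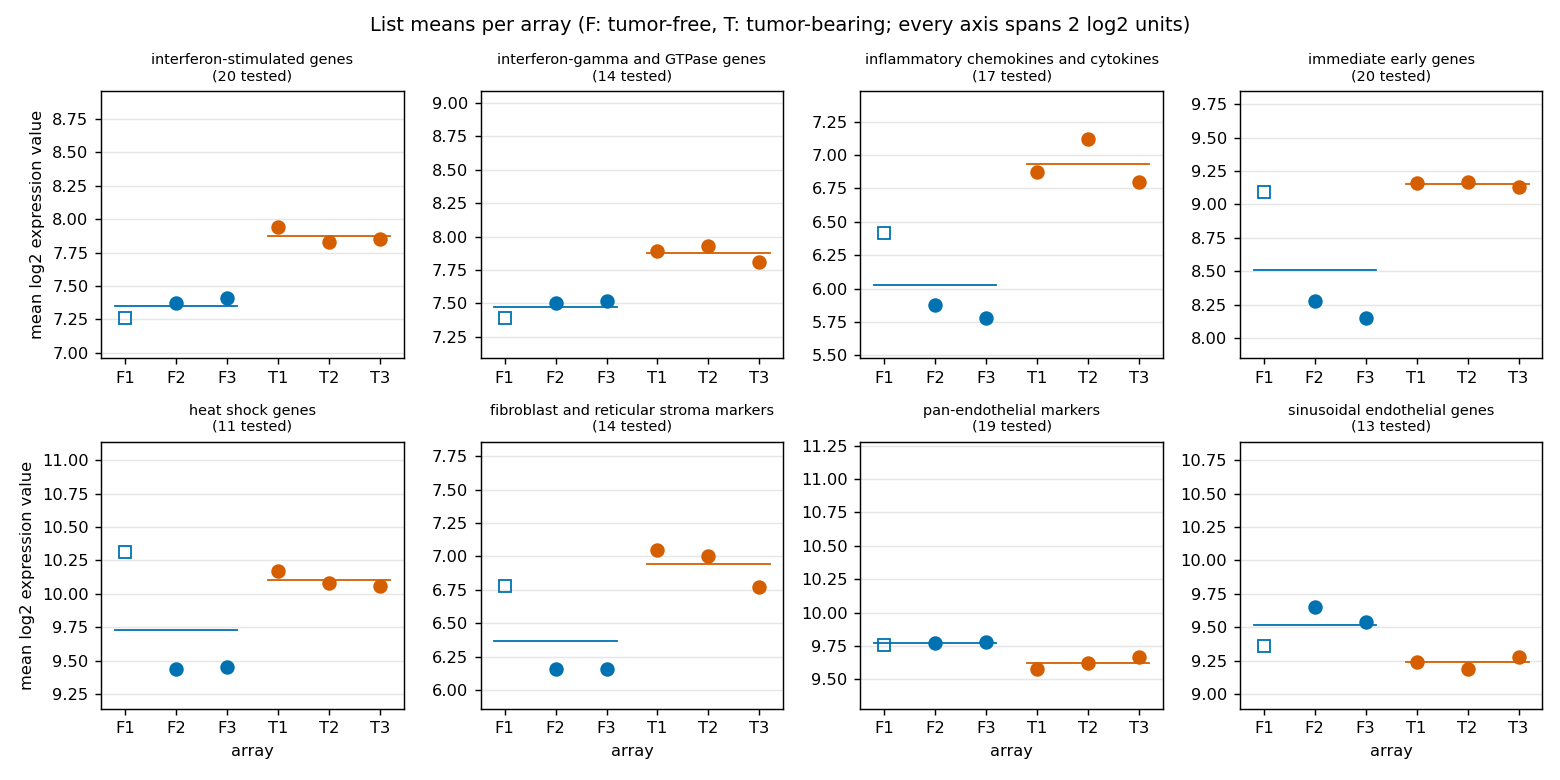
Mean log2 expression value of the members tested of 8 gene lists (y axes, each spanning 2 log2 units) on the 3 tumor-free arrays (F1 to F3, blue, the open square is replicate 1) and the 3 tumor-bearing arrays (T1 to T3, orange) of endothelial cells, with a line at each group mean. Immediate early and heat shock genes put F1 with the tumor-bearing arrays, at 9.09 and 10.31, while the interferon-stimulated list puts it at 7.26, with F2 and F3.

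The main question was which genes differ in the endothelium of tumor-bearing bones, and 3 genes passed. Stxbp6 and Abcb1b rose and Lpar6 fell, by limma with Benjamini-Hochberg adjustment over all 12430 genes (0.0241% of genes tested). Before adjustment 861 genes had p under 0.05 (6.93%), 408 of them higher and 453 lower in tumor-bearing mice. The median difference of all genes was -0.02 and the median standard error 0.23. Each standard error rests on the spread of all 12 arrays. The median SD was 0.173 and 0.189 in tumor-free and tumor-bearing endothelial cells, and 0.328 and 0.219 in the osteoblasts. A gene that varied among osteoblasts thus has a large SE here, as Cdh5 at 0.54 with endothelial SDs of 0.03 and 0.01.

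Stxbp6 encodes amisyn, a SNARE-binding protein that restrains vesicle fusion. Its values were 6.02, 5.56 and 5.43 on the tumor-free arrays and 7.48, 7.23 and 7.64 on the tumor-bearing ones (log2 expression), so that the lowest tumor-bearing array lay well above the highest tumor-free array. The means were 5.67 ± 0.31 and 7.45 ± 0.20 (SD, n = 3 each), a 3.43-fold rise (log2 difference 1.78 ± 0.23 SE, limma adjusted p = 0.0458). Abcb1b is, with Abcb1a, one of the pair of mouse genes for P-glycoprotein, the pump that expels many drugs from cells and is known from the blood-brain barrier. It stood at 4.36, 4.0 and 3.80 against 6.00, 6.31 and 6.13, from below to above the array medians, with no overlap. The rise was 4.26-fold (means 4.06 ± 0.28 and 6.14 ± 0.15 SD, n = 3 each, log2 difference 2.09 ± 0.27 SE, limma adjusted p = 0.0458). In osteoblasts Abcb1b was below the array medians too (4.36 ± 0.60 in tumor-free and 3.97 ± 0.17 in tumor-bearing mice, SD). It thus entered the test only through the tumor-bearing endothelial arrays, where it was high.

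Abcb1a, named after its values were seen, is the near-identical neighbour of Abcb1b, and probes can catch RNA of both, so the share of each gene is uncertain. It stood at 7.75, 6.35 and 6.48 on the tumor-free arrays and at 9.07, 8.12 and 8.73 on the tumor-bearing ones. The groups did not overlap either, but the difference of 1.78 ± 0.36 (SE) was short of the threshold (limma adjusted p = 0.174) and passed without tumor-free replicate 1 (2.22, adjusted p = 0.0101). Other members of the same superfamily, also named after their values were seen, were mixed. Abcg2 overlapped, between 9.10 and 9.14 on the tumor-free arrays and between 8.70 and 9.15 on the tumor-bearing ones. So did Abcc1, between 5.67 and 6.36 against 5.68 and 5.83. Abca1 was higher without overlap by a small difference, at 8.56, 8.44 and 8.55 against 8.78, 8.68 and 8.87 (0.26 ± 0.49 SE).

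Lpar6 encodes a receptor for lysophosphatidic acid, a lipid messenger of plasma. It fell from 9.66, 9.88 and 10.04 to 8.50, 8.49 and 8.46, values that varied little within the tumor-bearing group. The means were 9.86 ± 0.19 and 8.49 ± 0.02 (SD, n = 3 each), a 2.60-fold fall (log2 difference -1.38 ± 0.18 SE, limma adjusted p = 0.0458). Lpar4, a related receptor named after its values were seen, stood at 8.73, 8.41 and 8.88 against 7.83, 8.16 and 7.76. Its groups did not overlap, and its difference of -0.75 ± 0.37 (SE) did not pass (limma adjusted p = 0.77). Lpar1 lay between 5.67 and 5.83 on all 6 arrays.

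All 3 calls sat close to the threshold. Over 24 other settings Stxbp6 passed in 6 and Lpar6 in 7, and Abcb1b passed in 8 of the 23 that tested it, always with the same sign and with log2 differences of 1.66 to 1.95, -1.48 to -1.29 and 1.96 to 2.24. With 1 array left out at a time, all 3 passed without tumor-free endothelial replicate 1 (limma adjusted p = 0.00956, 0.0147 and 0.0169 for Stxbp6, Abcb1b and Lpar6). Abcb1b passed besides without tumor-free osteoblast replicate 3 and Lpar6 without tumor-bearing osteoblast replicate 1, and each of the other arrays, left out, ended every one of the 3 calls. With the 6 endothelial arrays alone Abcb1b passed (adjusted p = 0.0285), as did Mx2, while Stxbp6 and Lpar6 had adjusted p = 0.0534.

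**Figure D2:**
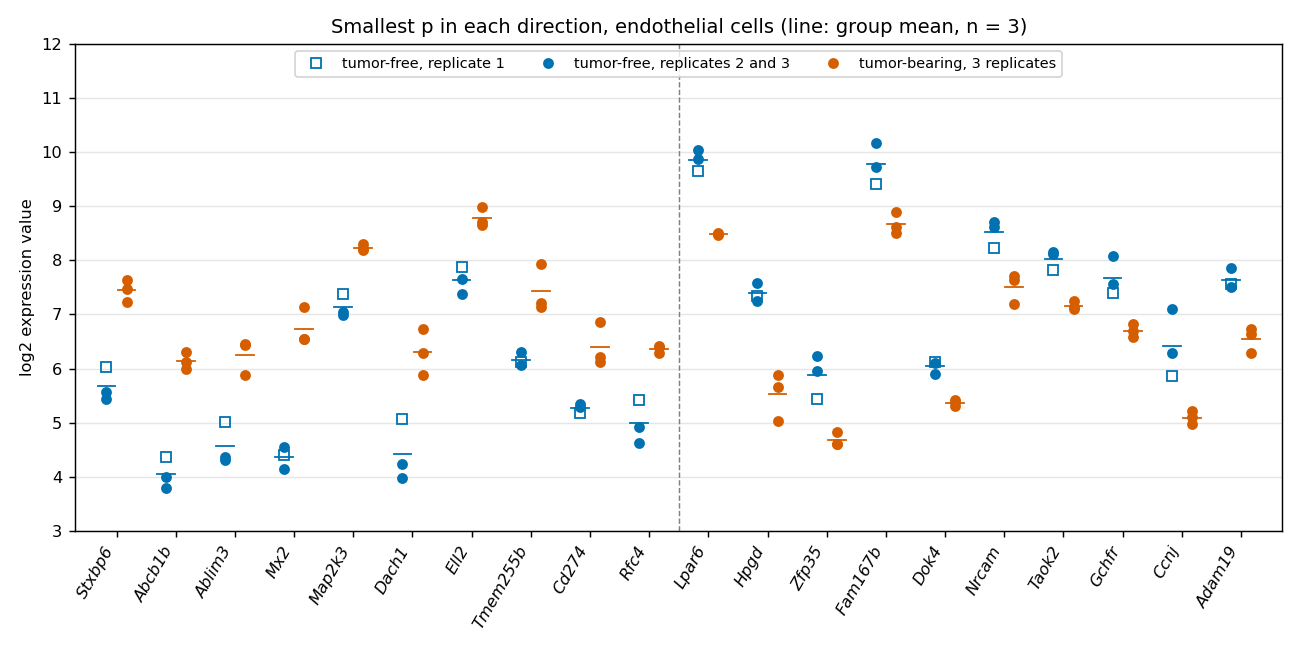
Log2 expression value (y axis) on each of the 6 endothelial arrays for the 10 genes with the smallest p among those higher in tumor-bearing mice (left of the dashed line) and the 10 among those lower, in order of p, with a line at each group mean (n = 3). The groups do not overlap for any of the 20, which a choice by small p of this same contrast makes likely. Only Stxbp6, Abcb1b and Lpar6 passed the threshold.

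Since fewer than 10 genes passed in either direction, the 10 smallest p on each side are described, and all but the 3 above were short of the threshold. Next among the higher genes came Ablim3, an actin-binding LIM protein, at 5.01, 4.31 and 4.37 against 6.45, 5.88 and 6.44 (log2 difference 1.69 ± 0.24 SE, limma adjusted p = 0.0511). Mx2, an antiviral GTPase induced by interferon, had the largest difference of the 20. It stood at 4.41, 4.14 and 4.55 against 7.13, 6.54 and 6.55, a log2 difference of 2.37 ± 0.35 (SE, limma adjusted p = 0.0597), which stood 5.19-fold higher. Tumor-free replicate 1 lay with its group for Mx2 and was the highest of the tumor-free arrays for Ablim3. Both genes were above the array medians only on the tumor-bearing endothelial arrays, through which they entered the test.

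Dach1, a transcription cofactor linked to artery growth, stood at 5.07, 3.97 and 4.23 against 6.73, 6.28 and 5.89 (1.87 ± 0.29 SE, limma adjusted p = 0.0818). Dach1 too was above the array medians only on the tumor-bearing endothelial arrays. Map2k3, a MAP kinase kinase, and Ell2, an elongation factor of RNA polymerase, differed by 1.10 ± 0.17 and 1.15 ± 0.19 (SE). Tmem255b, a transmembrane protein, and Rfc4, a subunit of the clamp loader of DNA replication, differed by 1.27 ± 0.21 and 1.37 ± 0.25 (SE). Cd274 encodes PD-L1, a surface ligand that restrains T cells. It stood at 5.18, 5.29 and 5.35 against 6.22, 6.13 and 6.87 (1.14 ± 0.21 SE, limma adjusted p = 0.174), with the 3 tumor-free arrays close together.

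Among the lower genes Hpgd, the enzyme that inactivates prostaglandins, differed most. It stood at 7.34, 7.24 and 7.59 against 5.04, 5.66 and 5.88 (log2 difference -1.86 ± 0.26 SE, limma adjusted p = 0.0511), 3.63-fold lower, and tumor-free replicate 1 lay between the other tumor-free arrays. Fam167b stood at 9.42, 10.17 and 9.73 against 8.62, 8.51 and 8.90, and Nrcam, a cell adhesion molecule of the immunoglobulin superfamily, at 8.23, 8.61 and 8.71 against 7.19, 7.64 and 7.72. Their differences were -1.10 ± 0.21 and -1.0 ± 0.19 (SE, limma adjusted p = 0.174 for each). Gchfr encodes the protein that restrains the first step of tetrahydrobiopterin synthesis, a cofactor of nitric oxide synthase. It stood at 7.40, 8.08 and 7.57 against 6.70, 6.82 and 6.59. Zfp35, Dok4, Taok2, Ccnj and Adam19, which encode a zinc finger protein, a docking adapter, a kinase, a cyclin and a metalloprotease, differed by -1.33 to -0.67. Of the 17 genes short of the threshold, Ablim3, Mx2, Map2k3, Dach1, Ell2, Rfc4, Hpgd, Zfp35, Fam167b, Nrcam, Gchfr and Ccnj passed without tumor-free replicate 1, with limma adjusted p from 0.00956 for Ablim3 and Dach1 to 0.0498 for Gchfr. Tmem255b, Cd274, Dok4, Taok2 and Adam19 did not.

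Without tumor-free replicate 1 61 genes passed (0.491% of those tested), 48 higher and 13 lower, among them all 3 called with it. With tumor-free replicate 2 or 3 left out in its place 0 passed, so the 61 are no second, independent result. The genes described next were chosen after their values were seen, from those with the largest differences without replicate 1. Timp4, an inhibitor of metalloproteases, stood at 9.15 on tumor-free replicate 1, at 5.94 and 6.56 on replicates 2 and 3 and at 10.05, 9.52 and 10.18 on the tumor-bearing arrays. Its difference was 3.67 without replicate 1 (limma adjusted p = 0.0117) and 2.70 ± 0.71 (SE, adjusted p = 0.36) with it. Car4, a carbonic anhydrase on the surface of capillaries, stood at 6.81, 4.85 and 5.03 against 7.99, 7.75 and 7.62, 2.85 without replicate 1 (adjusted p = 0.000275) and 2.23 with it (adjusted p = 0.174). Fmo2, a monooxygenase, stood at 9.30, 7.32 and 6.65 against 10.38, 10.21 and 10.25, and Meox2, a homeobox transcription factor, at 7.51, 4.98 and 5.23 against 7.76, 7.93 and 8.07. Fmo2 differed by 3.30 without and 2.53 with replicate 1, and Meox2 by 2.81 and 2.01. In each of these 4 genes replicate 1 lay between the other tumor-free arrays and the tumor-bearing ones. Fabp9, a fatty acid binding protein, stood at 8.77, 5.53 and 4.64 against 8.45, 8.40 and 8.80, so that replicate 1 lay among the tumor-bearing arrays. Anpep, a surface peptidase, C1qtnf9, a secreted protein, and Aqp7, a glycerol channel, differed by 2.82, 2.81 and 2.57 without replicate 1. With it they differed by 2.29, 2.22 and 1.97. The 8 members of the gene lists among the 61 were Mx2, Nr4a3, Icam1, Adamts4, Errfi1, Vwf, Tnfaip3 and Fosb.

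The gene lists are described by counts and medians beside those of all genes, for which 7.84% had all 3 tumor-bearing values above the tumor-free ones and 10.9% all 3 below. In the fit with all arrays 0 list members passed by limma, and 8 passed without tumor-free replicate 1. Lists of interferon response and of cytokines had higher medians in tumor-bearing mice, and pan-endothelial and sinusoidal lists lower ones. Whether these shifts were particular to the endothelium was not tested for lists, and the osteoblast medians are given beside them. In osteoblasts the medians were 0.36 for interferon-stimulated genes, 0.73 for cytokines, 0.79 for NF-kB genes, 0.70 for acute phase genes and 1.19 for immediate early genes. They were -0.40 for pan-endothelial and -0.19 for sinusoidal genes there, but 0 for the interferon-gamma list and -0.09 for arterial genes. The share of cells and the RNA per cell cannot be told apart in these bulk arrays, for these and all further lists.

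Short upstream windows of the members that hold a response element and whose groups did not overlap are shown because interferons and inflammatory cytokines are known to act through these elements. They are from RefSeq (GRCm38.p6) and were searched on both strands in the 250 bases before the transcription start, with the match in capitals. The interferon-stimulated response element was written as GAAANNGAAA and the NF-kB element as GGGANNTTCC, and a match is a description of these letters. For the interferon lists the windows are Ifit1 at chr19:34640760-34640838, Ifit3 at chr19:34583348-34583441, Stat2 at chr10:128270251-128270310, Gbp3 at chr3:142559974-142560039 and Gbp5 at chr3:142496744-142496803, all on the plus strand and with the element on the opposite strand, so that it reads as its reverse complement.
Ifit1: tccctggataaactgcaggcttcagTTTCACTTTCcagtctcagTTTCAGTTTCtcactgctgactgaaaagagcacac
Ifit3: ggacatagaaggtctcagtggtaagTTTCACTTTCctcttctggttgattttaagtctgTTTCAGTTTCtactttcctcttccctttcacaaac
Stat2: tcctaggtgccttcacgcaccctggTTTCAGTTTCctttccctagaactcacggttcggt
Gbp3: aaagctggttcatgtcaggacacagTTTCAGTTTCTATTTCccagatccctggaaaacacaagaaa
Gbp5: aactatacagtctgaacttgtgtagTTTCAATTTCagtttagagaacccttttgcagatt
For the cytokine list they are Il6 at chr5:30013045-30013104, Cxcl1 at chr5:90891149-90891209 and Cxcl2 at chr5:90903777-90903837 on the plus strand, and Cxcl10 at chr5:92349014-92349073 on the minus strand, and for the NF-kB list Nfkbia at chr12:55492648-55492701 on the minus strand, where the element reads as its reverse complement.
Il6: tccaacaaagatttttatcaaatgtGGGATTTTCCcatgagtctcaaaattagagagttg
Cxcl1: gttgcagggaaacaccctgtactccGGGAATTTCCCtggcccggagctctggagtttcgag
Cxcl2: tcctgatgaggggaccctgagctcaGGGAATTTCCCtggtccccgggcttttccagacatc
Cxcl10: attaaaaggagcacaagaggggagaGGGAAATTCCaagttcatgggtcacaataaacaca
Nfkbia: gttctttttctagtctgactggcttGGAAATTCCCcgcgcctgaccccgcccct

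Capitals in the windows of Ifit1 and Ifit3 mark 2 separate matches each, those of Gbp3 2 overlapping matches, and those of Cxcl1 and Cxcl2 2 matches shifted by a base, since the letters read nearly alike on both strands. The first interferon element began 104 bases before the start of Ifit1 and 45 before that of Gbp3, and the NF-kB element 44 bases before that of Il6, 71 before that of Cxcl1 and 29 before that of Nfkbia. The interferon element was present in 6 of the 14 interferon-stimulated genes that had a promoter entry and in 5 of 10 genes of the interferon-gamma list, against 2.98% of 32851 promoters and 2.96% of 9859 tested genes with an entry. The NF-kB element was present in 4 of 11 cytokine genes and 2 of 12 NF-kB targets, against 1.21% of promoters and 1.37% of tested genes. Among the 7 interferon-stimulated genes with an entry and no overlap, 3 held the element, and so did 3 of the other 7, Oas1a, Rsad2 and Bst2. Of the 5 genes of the interferon-gamma list with an entry and no overlap 2 held the element, and so did Gbp7, Irgm1 and Socs1 among the others. The 4 cytokine genes with a match were all among the 7 with an entry and no overlap. Of the 3 such NF-kB targets 1 held the element, and so did Nfkb2 among the others.

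Interferon-stimulated genes, which encode antiviral effectors and sensors, had a higher list mean on each tumor-bearing array than on any tumor-free one. The mean of the 20 members tested was 7.26, 7.37 and 7.41 on the tumor-free arrays and 7.94, 7.83 and 7.85 on the tumor-bearing ones, so here tumor-free replicate 1 was the lowest of all 6. In 10 of 20 the groups did not overlap and the tumor-bearing arrays were higher, against 7.84% of all genes, in 0 they were lower, and the median difference was 0.51 (0.38 without replicate 1). After Mx2 the smallest p belonged to Oas2, a sensor of double-stranded RNA, at 5.47, 5.03 and 5.16 against 5.92, 6.24 and 6.70 (1.07 ± 0.21 SE, limma adjusted p = 0.174). Ifit2, which binds foreign RNA, stood at 6.66, 6.38 and 6.92 against 7.75, 7.36 and 7.83 (0.99 ± 0.32 SE). Of the genes whose windows are shown, which are named after their values were seen, Ifit1 stood at 6.20, 7.02 and 6.15 against 7.47, 7.38 and 7.32. Stat2, the interferon signal transducer, stood at 8.16, 7.94 and 8.01 against 8.45, 8.54 and 8.54. Their differences of 0.93 ± 0.52 and 0.48 ± 0.29 (SE) had limma adjusted p = 0.82 and 0.871. Mx1, another member, stood at 2.88 to 3.10 against 3.17 to 3.49, too dim to be tested.

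Genes of the interferon-gamma response and its GTPases had tumor-free replicate 1 lowest too. The mean of the 14 tested was 7.39, 7.50 and 7.52 against 7.89, 7.93 and 7.81, with a median difference of 0.31 (0.26 without replicate 1), and 6 were higher without overlap and 0 lower. Beside Cd274, Gbp5, a GTPase that attacks the membranes of intracellular microbes, stood at 5.32, 4.44 and 5.42 against 6.21, 6.86 and 6.17 (1.35 ± 0.28 SE, limma adjusted p = 0.178). Irf1, a transcription factor of this response, stood at 8.78, 8.17 and 8.45 against 9.08, 9.17 and 8.86 (0.57 ± 0.25 SE). The 8 genes of antigen presentation tested had a smaller median of 0.22 (0.16 without replicate 1), and 1 of them, H2-Eb1, a class II chain, was higher without overlap (5.67, 6.26 and 6.15 against 6.75, 6.28 and 6.71).

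Inflammatory chemokines and cytokines had the highest median of the 47 lists with all arrays, 0.73 over 17 members. Without tumor-free replicate 1 it was 0.68, below the 0.87 of immediate early genes. In 10 of 17 the tumor-bearing arrays were all higher and in 0 all lower. Ccl2, which draws monocytes, stood at 7.95, 6.97 and 5.73 against 9.64, 9.0 and 9.54 (2.51 ± 0.72 SE, limma adjusted p = 0.437), and its difference was 3.04 without replicate 1 (adjusted p = 0.159). Cxcl2, which draws neutrophils, stood at 7.98, 5.86 and 5.44 against 9.08, 8.78 and 8.65 (2.41 ± 0.70 SE, adjusted p = 0.44), and its difference was 3.19 without replicate 1 (adjusted p = 0.0595). In both genes replicate 1 was the highest tumor-free array, and still below each tumor-bearing one. Csf3, the granulocyte growth factor, stood at 6.14, 5.16 and 4.94 against 6.00, 6.37 and 6.86, and there it overlapped.

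Il6, a cytokine of the acute phase named with its window, had the largest difference of the list. It stood at 9.11 on tumor-free replicate 1 and at 5.93 and 6.64 on replicates 2 and 3, against 9.87, 9.70 and 9.95 on the tumor-bearing arrays. The difference was 2.61 ± 0.92 (SE, limma adjusted p = 0.573) with all arrays and 3.56 (adjusted p = 0.144) without replicate 1. Cxcl10, a chemokine for activated T cells, stood at 9.60, 8.41 and 8.40 against 10.08, 10.19 and 9.78, and Cxcl1 at 9.07, 8.36 and 8.13 against 9.24, 9.36 and 9.25. The list mean was 6.42, 5.88 and 5.78 against 6.87, 7.12 and 6.80, which sets replicate 1 between the groups.

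**Figure D3:**
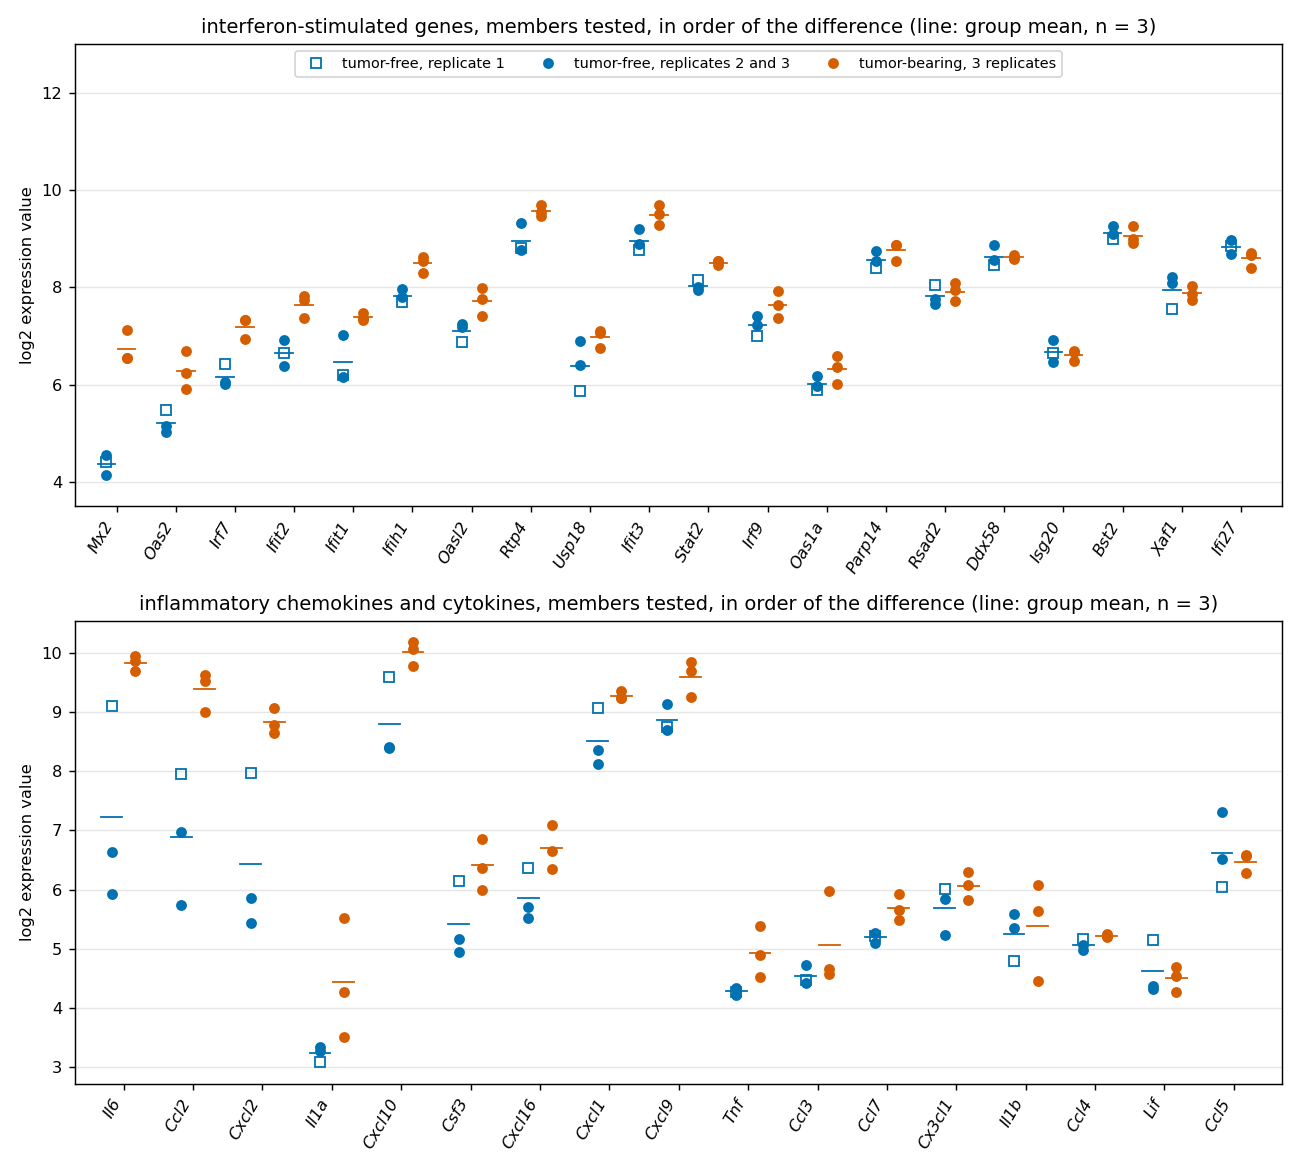
Log2 expression value (y axis) of the 20 interferon-stimulated genes (top) and the 17 chemokines and cytokines (bottom) that were tested, on the 3 tumor-free arrays (blue, the open square is replicate 1) and the 3 tumor-bearing arrays (orange), in order of the difference, with a line at each group mean. Replicate 1 lies within or below the other tumor-free values for most of the upper genes, and above them for Il6, Ccl2 and Cxcl2 below, at 9.11, 7.95 and 7.98.

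NF-kB feedback genes and targets were on the same side. All 14 had a positive difference, with a median of 0.40 (0.66 without replicate 1), but in only 3 did the groups not overlap. Tnfaip3, which encodes the NF-kB inhibitor A20, stood at 7.72, 6.39 and 6.62 against 8.10, 8.10 and 7.93 (1.14 ± 0.33 SE, limma adjusted p = 0.445, and 1.54 with adjusted p = 0.039 without replicate 1). Ch25h, which makes a hydroxylated cholesterol, stood at 5.72, 4.68 and 5.14 against 6.82, 5.68 and 5.91, where replicate 1 overlapped. Nfkbia, the NF-kB inhibitor whose window is shown, stood at 9.62, 8.72 and 8.48 against 9.74, 10.06 and 9.88 (0.95 ± 0.43 SE, limma adjusted p = 0.718). Acute phase and complement genes had a median of 0.48 (0.64 without replicate 1), with 8 of 16 higher without overlap and 0 lower. Serpina3n, a protease inhibitor, stood at 6.23, 5.02 and 6.28 against 7.20, 7.04 and 7.14 (1.28 ± 0.35 SE, limma adjusted p = 0.382), and Hp, haptoglobin, at 7.54, 6.09 and 5.87 against 8.19, 8.05 and 8.30 (1.68 ± 0.52 SE). Stat3, the transducer of Il6, stood at 8.79, 8.16 and 8.43 against 9.04, 9.16 and 8.74, where tumor-free replicate 1 overlapped.

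Immediate early genes differed in the same direction as these lists, and their part in them was not tested. All 20 had a positive difference, with a median of 0.59 (0.87 without replicate 1), and 9 were higher without overlap. Nr4a3, an orphan nuclear receptor, stood at 6.73, 5.37 and 5.37 against 7.20, 7.48 and 7.14 (1.45 ± 0.36 SE, limma adjusted p = 0.337, and 1.90 with adjusted p = 0.0256 without replicate 1). Egr1 and Egr2, zinc finger factors, differed by 0.64 ± 0.24 and 0.61 ± 0.22 (SE). Heat shock genes had a median of 0.22, which was 0.54 without replicate 1, and the groups overlapped in each of the 11. Hsp90aa1, a chaperone, stood at 11.17, 10.51 and 10.42 against 11.22, 11.13 and 11.15, Hsph1 at 10.56, 8.55 and 8.84 against 10.31, 10.08 and 10.12, and Bag3, a co-chaperone, at 9.18, 8.07 and 8.13 against 9.08, 9.01 and 8.98.

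Adhesion molecules for leukocytes and tumor cells had a median of 0.02 over 16 members (0.05 without replicate 1), with 2 higher and 3 lower without overlap. Icam1, the ligand of leukocyte integrins, stood at 9.12 on tumor-free replicate 1, at 7.58 and 7.27 on replicates 2 and 3, and at 9.13, 9.12 and 9.18 on the tumor-bearing arrays. Its difference was 1.15 ± 0.38 (SE, limma adjusted p = 0.515) and 1.72 without replicate 1 (adjusted p = 0.00956), so its call turned on that array. Jam2, a junctional adhesion molecule, stood at 8.94, 8.29 and 8.32 against 9.31, 9.52 and 8.98, and Cd44, the hyaluronan receptor, at 4.93, 5.05 and 5.21 against 5.48, 5.92 and 5.29. Vcam1, which holds integrin-bearing cells in the marrow, stood at 10.92, 10.97 and 10.86 against 10.59, 10.47 and 10.65, lower without overlap. Its difference was -0.34 ± 0.48, an SE that includes the spread among osteoblasts. E-selectin, Sele, which catches circulating cells in marrow vessels, stood at 10.48, 10.05 and 9.64 against 10.23, 10.21 and 10.30 and overlapped. Selp is not analysed here.

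Factors that support blood stem cells had a median of 0.33 over 17 members (0.40 without replicate 1), with 6 higher and 2 lower without overlap. Cxcl12, the retention chemokine, stood at 9.88, 9.12 and 8.85 against 9.79, 9.85 and 9.88, where tumor-free replicate 1 lay among the tumor-bearing arrays. Kitl, the ligand of the Kit receptor, stood at 8.46, 7.70 and 8.09 against 8.65, 8.71 and 8.51 (0.54 ± 0.51 SE). The smallest p belonged to Lepr, the leptin receptor, at 8.42, 7.18 and 6.96 against 8.79, 8.87 and 8.78 (1.29 ± 0.45 SE, limma adjusted p = 0.573). Angpt1, a ligand of the endothelial receptor Tek, stood at 5.37, 4.17 and 4.18 against 6.03, 5.90 and 5.56 (1.26 ± 0.47 SE). Dll4, a Notch ligand of arteries, stood at 7.70, 6.92 and 6.93 against 7.96, 7.42 and 8.09. Lepr and Cxcl12 also mark reticular stroma, a non-endothelial neighbour of the vessels, and markers of that stroma had a list mean of 6.78, 6.16 and 6.16 on the tumor-free arrays and 7.05, 7.0 and 6.77 on the tumor-bearing ones. The part of such cells in these values was not tested.

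Pan-endothelial and sinusoidal genes pointed the other way. Pan-endothelial markers had a median of -0.24 over 19 members (-0.28 without replicate 1), with 10 lower and 2 higher without overlap, against 10.9% and 7.84% of all genes, and a list mean of 9.76, 9.77 and 9.78 against 9.58, 9.62 and 9.67. Robo4, which stabilises vessels, stood at 8.87, 9.06 and 9.11 against 8.26, 8.55 and 8.60 (-0.54 ± 0.14 SE, limma adjusted p = 0.353). Tie1, an endothelial receptor kinase, stood at 8.62, 9.02 and 8.95 against 8.17, 8.22 and 8.50 (-0.56 ± 0.19 SE). Kdr, the main receptor for VEGF, stood at 10.70, 10.88 and 10.82 against 10.52, 10.36 and 10.37, and Emcn, a sialomucin of veins and sinusoids, at 10.83, 10.85 and 10.88 against 10.51, 10.34 and 10.67. Pecam1 overlapped, with a difference of 0.05.

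The 2 higher members were Fli1, a transcription factor named after its values were seen (9.56, 9.55 and 9.52 against 9.82, 9.76 and 9.88), and Vwf, the adhesive protein that platelets bind. Vwf stood at 7.45, 6.07 and 6.43 against 7.84, 7.90 and 7.78, a difference of 1.19 ± 0.29 (SE, limma adjusted p = 0.316) and of 1.59 without replicate 1 (adjusted p = 0.00967). Sinusoidal genes had a median of -0.31 over 13 members, the lowest of the 47 lists with all arrays (-0.37 without tumor-free replicate 1, where erythroid markers had -0.47), with 8 lower and 1 higher without overlap. Stab1, a scavenger receptor, stood at 9.07, 9.61 and 9.73 against 8.58, 8.71 and 8.94 (-0.72 ± 0.23 SE, limma adjusted p = 0.5). Gpr182, a chemokine-binding receptor, stood at 9.10, 9.79 and 9.51 against 8.77, 8.74 and 8.58 (-0.77 ± 0.25 SE, adjusted p = 0.5), and Flt4, a VEGF receptor, at 8.77, 9.43 and 9.44 against 8.64, 8.50 and 8.78, where it overlapped. Cd36, the fatty acid transporter, was the member higher without overlap, at 11.07, 10.57 and 10.55 against 11.51, 11.34 and 11.60 (0.75 ± 0.57 SE). Tumor-free replicate 1 was nearest to the tumor-bearing arrays for all 4 of Stab1, Gpr182, Flt4 and Cd36.

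Arterial genes had a median of 0.27 over 15 members (0.33 without replicate 1), 10 of them positive, with 2 higher and 1 lower without overlap. Bmx, a kinase of arterial endothelium, stood at 5.78, 5.24 and 5.25 against 5.79, 5.97 and 6.96, where the highest tumor-free and the lowest tumor-bearing array nearly met. Cav1, which shapes caveolae, stood at 10.35, 9.59 and 9.96 against 10.74, 10.68 and 10.49. Ligands and receptors of VEGF and angiopoietin had a median of -0.09 over 19 (-0.04 without replicate 1). Aplnr, the apelin receptor, stood at 10.24, 10.62 and 10.38 against 9.76, 9.72 and 9.82 (-0.65 ± 0.15 SE, limma adjusted p = 0.283). Angpt2, the vessel-destabilising ligand, overlapped, at 7.11, 7.50 and 6.73 against 7.63, 7.07 and 7.69. Genes of Notch signaling had a median of -0.03 with 0 of 15 free of overlap, and without replicate 1 the median turned to 0.10. Genes of TGF-beta and BMP signaling had a median of 0.04 over 22, and of 0.17 without replicate 1.

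Genes of coagulation had a median of 0.20 over 16 members (0.30 without replicate 1), with 4 higher and 3 lower without overlap. Beside Vwf, Procr, the endothelial receptor of protein C, stood at 8.01, 7.29 and 6.90 against 8.52, 8.32 and 8.34 (0.99 ± 0.27 SE, limma adjusted p = 0.382). F8, the coagulation factor that Vwf carries, stood on the other side at 10.35, 10.61 and 10.51 against 9.75, 9.75 and 9.71 (-0.75 ± 0.27 SE, adjusted p = 0.58). F3, tissue factor, lay between 4.40 and 4.84 on all 6 arrays, below the array medians. Nos3, the endothelial nitric oxide synthase, stood at 6.01, 6.00 and 5.98 against 5.77, 6.50 and 6.20.

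Markers of other marrow cell types are given as levels. The sort took CD31+ and SCA1+ cells and left out CD45+ cells, a gate meant to remove these types, and the part of any that remained in the lists above was not tested. Fibroblast and reticular markers had a median of 0.55 over all 14 listed (0.64 without replicate 1), with 4 higher and 0 lower without overlap. Adipoq, made by reticular cells and adipocytes, stood at 9.03, 8.25 and 6.74 against 9.21, 9.41 and 9.41, and Mgp, a matrix protein, at 9.55, 8.32 and 9.08 against 10.09, 9.87 and 10.07. Osteoblast markers had a median of 0.49 over the 9 tested of 15 listed (0.44 without replicate 1), with 5 higher and 0 lower without overlap and list means of 5.71 to 5.85 on the tumor-free and 6.10 to 6.16 on the tumor-bearing arrays. Alpl, alkaline phosphatase, stood at 6.88, 6.00 and 6.70 against 7.47, 7.45 and 7.06 (0.80 ± 0.24 SE, limma adjusted p = 0.445), below its mean of 9.83 in tumor-free osteoblasts, while Phex and Sp7 differed by 1.06 and 0.65. The 3 negative members, named after their values were seen, were the matrix genes Col1a1, Col1a2 and Ibsp at -0.21, -0.11 and -0.40, all with overlap. Smooth muscle and pericyte markers had a median of 0.32 over 13 (0.53 without replicate 1), with 3 higher and 2 lower without overlap and list means of 7.58, 7.04 and 6.84 against 7.68, 7.69 and 7.34, and Tagln, an actin-binding protein of contractile cells, stood at 6.47, 5.95 and 5.85 against 7.56, 7.36 and 7.15. Myh11 and Acta2, contractile proteins, differed by 1.28 and 1.06. The 2 lower members, named after their values were seen, were Abcc9 and Kcnj8, subunits of a potassium channel of pericytes, at -0.28 and -0.33.

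Markers of blood cells had list means that overlapped between the groups. Neutrophil markers had list means of 5.07 to 6.10 on the tumor-free and 5.53 to 6.07 on the tumor-bearing arrays (median 0.15 over 10 tested of 15 listed), macrophage markers 5.56 to 5.69 and 5.53 to 5.83 (median 0.00 over 13 of 17), and lymphocyte markers 5.03 to 5.83 and 4.93 to 5.86 (median 0.03 over 4 of 15). Erythroid markers had 5.92 to 6.57 and 5.97 to 6.23 (median -0.30 over 7 of 15), and megakaryocyte markers 5.84 to 6.52 and 5.65 to 6.55 (median 0.06 over 8 of 12). Without replicate 1 these 5 medians were 0.19, 0.01, 0.00, -0.47 and -0.02. The untested members were above the array median on fewer than 3 of the 12 arrays or are not used here. Cartilage markers were high on tumor-free replicate 3 alone, with a list mean of 6.35 against 5.16 to 5.54 on the other 5 arrays.

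**Figure D4:**
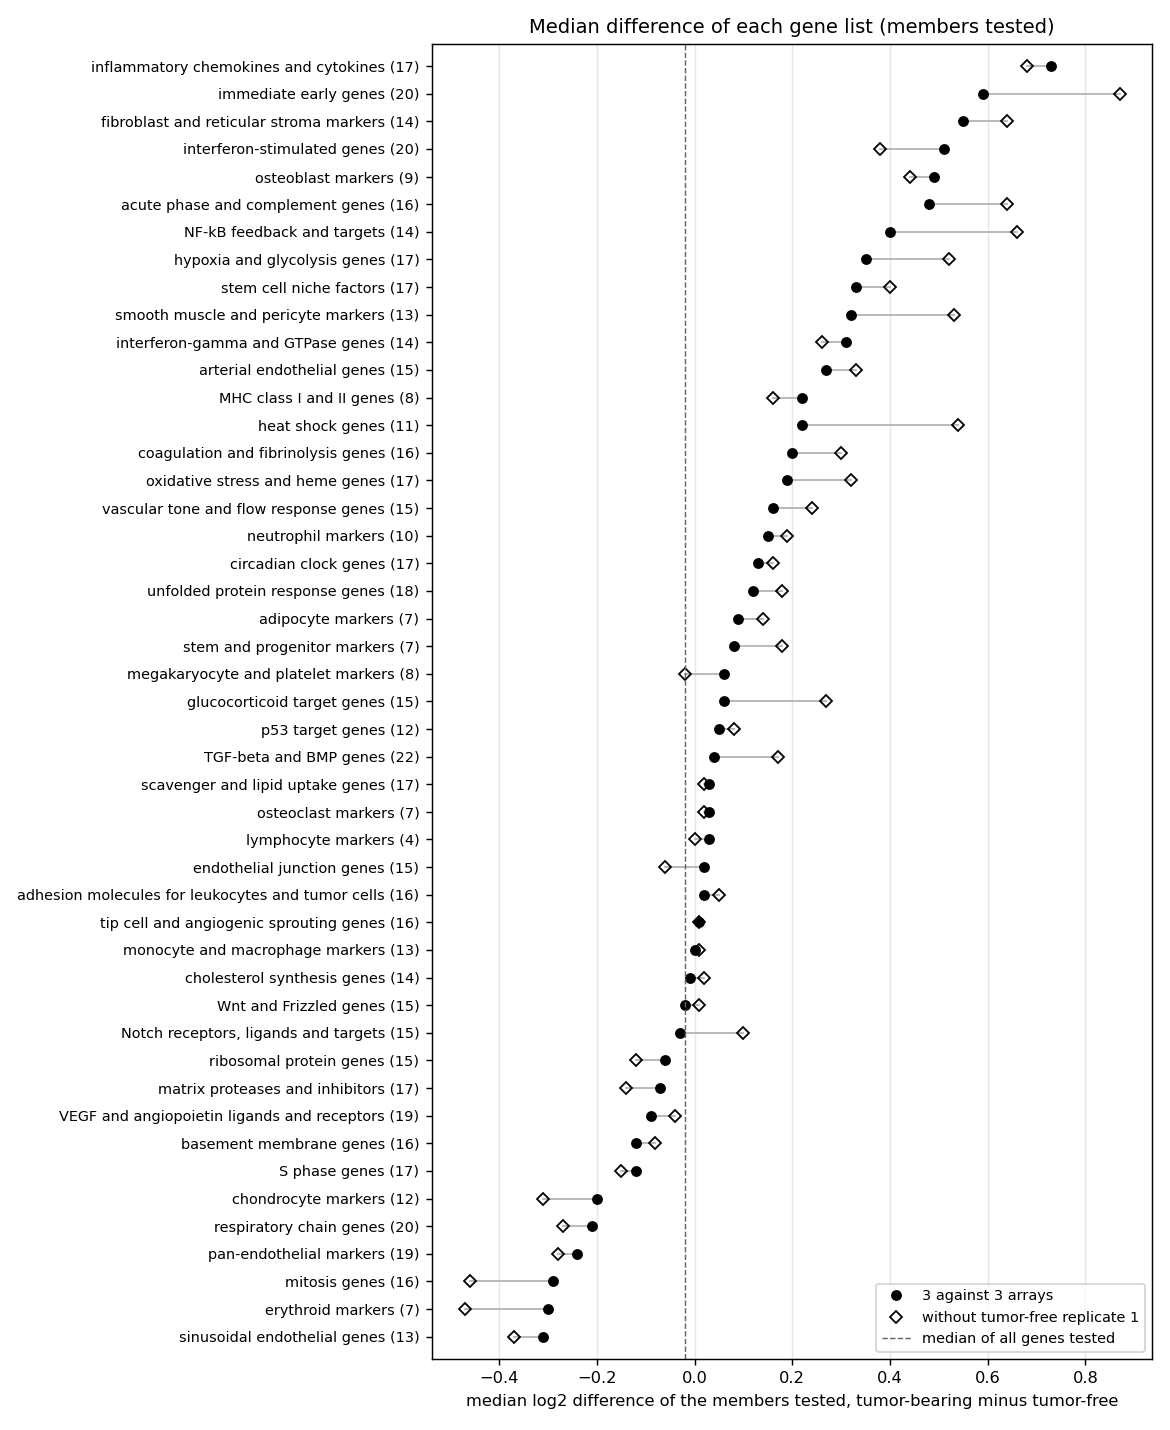
Median log2 difference, tumor-bearing minus tumor-free (x axis), of the members tested of each of 47 gene lists (number tested in parentheses), with all 6 endothelial arrays (dots) and without tumor-free replicate 1 (open diamonds), and the median of all genes tested (dashed line, -0.02). Cytokines stand highest at 0.73 and sinusoidal genes lowest at -0.31, and immediate early genes stand at 0.59 with and 0.87 without replicate 1.

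Whether a change was particular to the endothelium was tested as the difference of the tumor effects in endothelial cells and osteoblasts. By limma 26 genes passed (0.209% of those tested), 4 toward endothelial cells and 22 toward osteoblasts. The first 4 were Abcb1b, Ablim3, Stxbp6 and, named after its values were seen, Acr, a sperm protease. Acr passed in osteoblasts, where it fell (-0.83, limma adjusted p = 0.0134), and not in endothelial cells (0.46, adjusted p = 0.5). Abcb1b differed by 2.09 in endothelial cells and by -0.39 in osteoblasts, a difference of 2.48 ± 0.38 (SE, limma adjusted p = 0.0329). Stxbp6 gave 1.78 and -0.34 (2.11 ± 0.32 SE, adjusted p = 0.0329), with 7.44 ± 0.23 in tumor-free and 7.11 ± 0.36 in tumor-bearing osteoblasts (SD, n = 3 each), near its level in endothelial cells of tumor-bearing mice. Ablim3 gave 1.69 and -0.54 (2.23 ± 0.34 SE, adjusted p = 0.0329). In osteoblasts Abcb1b (means 4.36 and 3.97) and Ablim3 (4.60 and 4.07) lay below the array medians, so their osteoblast differences are between dim values.

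Mx2 and Dach1 fell short in this test, at 2.32 ± 0.49 and 2.35 ± 0.41 (SE, limma adjusted p = 0.0781 and 0.0527), as did Hpgd at -1.72 ± 0.36 (adjusted p = 0.0781). Lpar6 gave -1.38 in endothelial cells and -0.71 in osteoblasts, and the difference of -0.67 ± 0.26 (SE) did not pass (adjusted p = 0.245). Map2k3 differed by 1.10 in endothelial cells and by 1.26 in osteoblasts, and Icam1 by 1.15 and 1.31. The differences between the cell types were -0.16 ± 0.24 and -0.16 ± 0.54 (SE) for these genes, which does not show that they were alike. Of the 22 genes toward osteoblasts, the osteoblast differences ran from 0.61 for Nbr1 to 2.76 for Abhd2, and the endothelial ones from -0.91 for Acvr1b to 0.17 for Abhd2, with 0 of the 22 past the threshold in endothelial cells. These 3 genes are named after their values were seen. Leaving out single arrays moved the count from 26 to between 0 and 545. It was 0 without tumor-free endothelial replicate 2 or 3, any single tumor-bearing endothelial array or tumor-bearing osteoblast replicate 2. It was 545, 223 and 40 without tumor-free osteoblast replicate 1, 2 or 3, and 13 without tumor-bearing osteoblast replicate 3.

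**Figure D5:**
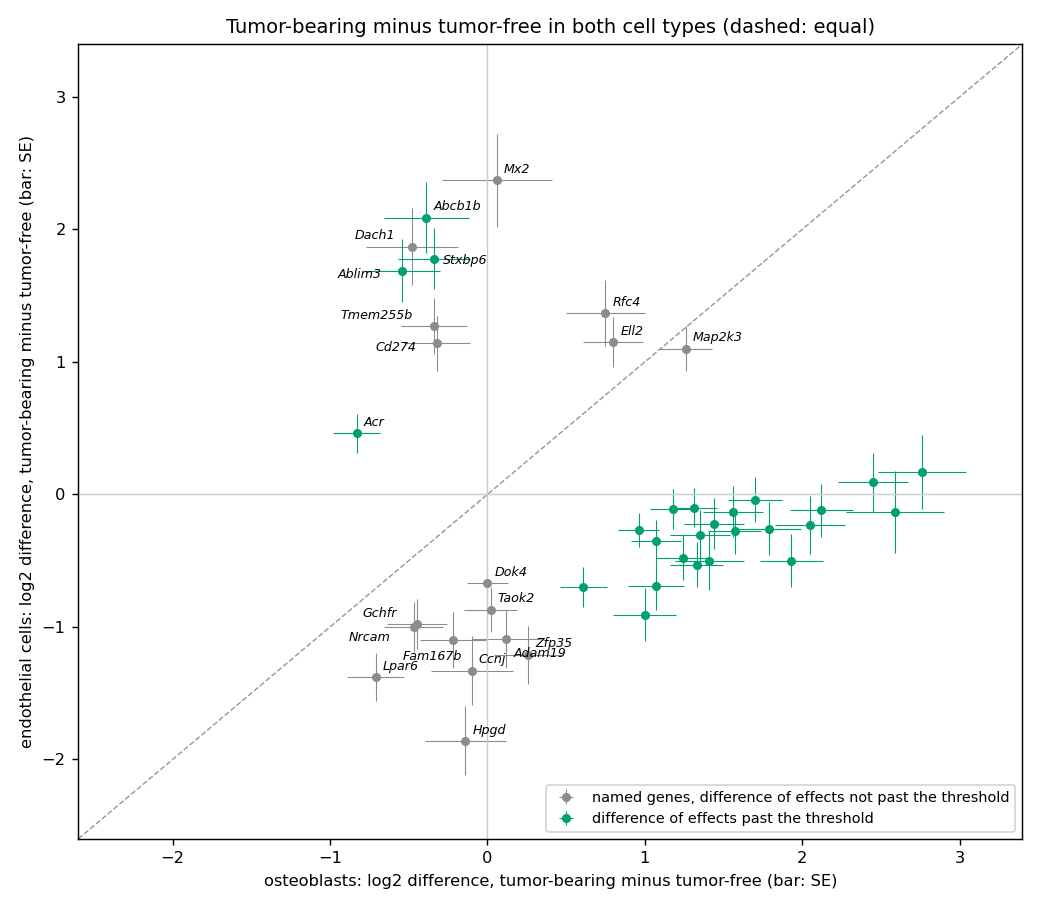
Log2 difference, tumor-bearing minus tumor-free, in osteoblasts (x axis) and in endothelial cells (y axis), with standard errors, for the 26 genes whose differences differed between the cell types (green) and the other 17 of the 20 genes named by p (grey), with the line of equal differences dashed. Abcb1b, Stxbp6 and Ablim3 lie above the line at 2.09, 1.78 and 1.69 in endothelial cells. Most green genes lie to the right, between -0.91 and 0.17 in endothelial cells and mostly below 0 there.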

How the data were processed

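RNA of sorted cells was amplified, labelled with biotin and hybridised to 12 arrays (4 groups of 3). Per the submitters' processing notes the tool affy was used, with neither its version nor the normalization stated in any source at hand. The authors deposited log2 expression values per probe set, which were used as they are. Of 34760 probe sets, 21640 have 1 gene symbol, 1321 several and 11799 are not listed in the annotation. Each of 19937 genes was taken from its probe set with the highest mean over the 12 arrays, and 12430 were tested because on 3 or more arrays they were brighter than the median probe set of that array. Differences of group means were tested with limma 3.58.1 in R 4.3.3 over all 12 arrays (8 residual degrees of freedom, two-sided) with Benjamini-Hochberg adjustment at 0.05. A log2 difference is tumor-bearing minus tumor-free. Arrays give no counts, so their number limits the precision.

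The members and the 47 gene lists (731 genes, of which 667 were matched, 2 by an older symbol) were chosen with earlier results of these data known. Lists carry no test. Genes named by rule were the 10 with the smallest p in each direction, since fewer than 10 passed, 18 endothelial genes of interest, of which Ly6a and Selp are not analysed here, and the 3 members of each described list with the smallest p. Groups that do not overlap have all 3 values of one above all 3 of the other. The fit was checked on simulated data with independent noise and no array set apart, which leaves the part of tumor-free replicate 1 unchecked. Alternatives were the 6 arrays alone, 2 normalizations, 2 filters, a trend of the spread with intensity, averaging a gene's probe sets, array weights, blocks and leaving out arrays.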

Additional observations from a re-analysis of the deposited data

Results flagged for a closer look

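For 3 genes the effect of the tumor differed between endothelial cells and osteoblasts by the interaction term of the limma fit. The difference of the log2 effects, endothelial minus osteoblast, was 2.48 for Abcb1b, 2.11 for Stxbp6 and 2.23 for Ablim3 (limma adjusted p = 0.0329 for each). All 3 tumor-bearing endothelial arrays lay above all 3 tumor-free ones for each gene, as for 7.84% of all genes. The choice of these genes by small p in the endothelial contrast makes that likely, so it adds no support. The osteoblast differences were -0.39, -0.34 and -0.54. Abcb1b and Ablim3 lay below the array medians in osteoblasts and entered the test only through the tumor-bearing endothelial arrays. Groups of 3 are too small for a search for single outlying arrays.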

How the results depend on the processing

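The count of endothelial genes that passed was 3 with all arrays and changed with most settings. It was 2 with the 6 endothelial arrays alone, 7 with the mean over probe sets, 38 with a weight per group, 449 with a weight per array (238 higher, 211 lower) and 159 when replicate 1 was left out of both tumor-free groups, an alternative chosen after seeing the data. By limma it was 0 with quantile normalization, with arrays centred on their medians, without the filter, with the filter at the 70th percentile and with an intensity trend and robust estimation, where 739, 895, 1186, 568 and 848 genes had an unadjusted p under 0.05 and the smallest adjusted p was 0.0639, 0.0607, 0.0539, 0.054 and 0.0661. Centring moved the median of all genes from -0.02 to -0.07. Leaving out single arrays gave 0 to 61 genes, 61 without tumor-free endothelial replicate 1, 2 without tumor-bearing osteoblast replicate 1, 1 without tumor-free osteoblast replicate 3 and 0 without each of the other 9 (468 to 1170 unadjusted for single arrays left out).

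With the replicate block 0 endothelial genes passed (854 unadjusted, smallest limma adjusted p = 0.166), and 0 passed for the difference of tumor effects. Same-numbered tumor-free and tumor-bearing endothelial arrays had correlations of 0.04, -0.03 and -0.04 in their deviations from the group means. For same-numbered endothelial and osteoblast arrays they were 0.09, 0.07 and 0 in tumor-free mice, and 0, 0.07 and -0.05 in tumor-bearing ones. With 3 arrays per group such values cannot settle whether the numbers pair the samples. A random block of tumor state with replicate number left 3 genes and gave 40 for the difference (consensus correlation 0.014).

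The count for the difference of tumor effects was 26 with all arrays, 14 with quantile normalization, 96 with centred arrays, 11 with the filter at the 70th percentile, 41 with the mean over probe sets, 324 with a weight per array and 378 with both tumor-free replicates 1 left out, and 0 to 545 with single arrays left out. No result reversed its sign among those called. List medians kept their sign in 24 of 24 settings for interferon-stimulated genes (0.38 to 0.60), cytokines (0.53 to 0.77), immediate early genes (0.40 to 0.87), pan-endothelial markers (-0.28 to -0.19) and sinusoidal genes (-0.37 to -0.26), and in 17 of 24 for Notch genes.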

Other observations

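Genes of hypoxia and glycolysis had a median difference of 0.35 over 17 members (0.52 without tumor-free replicate 1), with 8 higher and 1 lower without overlap, against 7.84% and 10.9% of all genes. Pfkp, a glycolytic kinase, stood at 6.82, 6.95 and 6.17 against 7.37, 7.41 and 7.53 (0.79 ± 0.28 SE, limma adjusted p = 0.573), and Ankrd37, a target of the hypoxia factor, at 6.50, 5.66 and 5.66 against 7.25, 6.50 and 6.80, where the groups met near 6.50. Adm, the vasodilator adrenomedullin, stood at 5.94, 5.33 and 4.64 against 6.23, 5.92 and 6.08. Respiratory chain genes lay on the other side, with a median of -0.21 over 20 members (-0.27 without replicate 1), 0 higher and 6 lower without overlap, and list means of 9.12, 9.34 and 9.23 against 9.01, 8.98 and 9.12. Genes of mitosis had a median of -0.29 over 16 members (-0.46 without replicate 1), with 1 higher and 4 lower without overlap.

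Genes of the response to oxidative stress had a median of 0.19 over 17 members (0.32 without replicate 1), with 4 higher and 1 lower without overlap. Mt2, a metal-binding protein, stood at 8.01, 5.19 and 6.49 against 8.79, 8.87 and 8.88 (2.29 ± 0.89 SE, limma adjusted p = 0.619). Gclm and Gclc, the 2 subunits of the enzyme that starts glutathione synthesis, differed by 0.70 and 1.15, and by 0.78 and 1.62 without replicate 1. Scavenger and lipid uptake genes had a median of 0.03 over 17 (0.02 without replicate 1) and were split, with 4 higher and 5 lower without overlap. Beside Stab1 on the lower side, Fabp5, a fatty acid binding protein, stood at 8.48, 7.45 and 7.30 against 8.73, 8.98 and 9.12, and Lpl, lipoprotein lipase, at 9.34, 8.61 and 7.95 against 9.83, 9.53 and 9.89.

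Matrix proteases and their inhibitors had a median of -0.07 over 17 (-0.14 without replicate 1). Adamts4, a protease that cuts aggrecan, stood at 8.57, 7.08 and 6.98 against 8.58, 8.84 and 8.71, 1.17 with all arrays and 1.68 without tumor-free replicate 1 (limma adjusted p = 0.445 and 0.00757). Cst3, a protease inhibitor, stood at 10.82, 10.35 and 10.45 against 11.18, 11.20 and 10.98, and Adamts1 at 10.25, 9.37 and 9.37 against 10.41, 10.32 and 10.46. Genes of sprouting tip cells had a median of 0.01 over 16 with and without replicate 1, in which Ramp3, a partner of the adrenomedullin receptor, stood at 9.02, 9.15 and 9.06 against 8.30, 7.73 and 8.10 (-1.03 ± 0.31 SE, limma adjusted p = 0.445) and Plaur, the urokinase receptor, at 8.48, 6.96 and 6.77 against 8.79, 8.58 and 8.78. Plvap, a protein of endothelial fenestrae, stood at 9.26, 9.68 and 9.65 against 9.07, 9.35 and 8.62.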
